A study of Homo sapiens with 24 samples.

Results

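The transcripts described here come from 40 genes of DNA replication and of the S phase of the cell cycle. They were chosen by symbol, for their known parts in origin licensing, fork movement, nucleotide supply and the entry into S phase, and they are 40 of the 60671 genes in the count tables. All 40 passed the low-count filter in every comparison. The rule uses no measured value, but the genes were picked with earlier results of these data known. The cells were H1 and H9, 2 established human embryonic stem cell lines, which grow either in a naive state, like the epiblast of the blastocyst, or in a primed state, like the later epiblast. Polyadenylated RNA was sequenced in 24 libraries, in 8 groups of 3.

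The tested H1 groups were CARHSP1 knockdown primed cells, ZNF8 knockdown naive cells and ZIC2 knockdown cells on day 2 of differentiation to ectoderm. Each had a control group of H1 cells in the same state with a nontargeting construct, and doxycycline is listed as the treatment of all 18 H1 libraries, controls included. CARHSP1 encodes a cold shock domain protein that binds RNA, ZNF8 a zinc finger protein and ZIC2 a zinc finger transcription factor of early neural development. The remaining groups were naive H9 and primed H9 cells, for which neither a knockdown nor doxycycline is listed. StemFlex is the growth medium listed for every library. The labels state neither the clones used nor whether replicates came from separate cultures. The p-values therefore reflect the spread among these libraries, which may be technical.

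Replication begins when ORC, CDC6 and CDT1 load the ring-shaped MCM2-7 complex onto origins in G1 phase, a step called licensing. On entry into S phase the ring is turned into a moving helicase by CDC45 and the GINS complex, primase lays down primers, and the clamp PCNA, placed by the loader RFC, keeps the polymerases on the template. Many genes of this machinery are targets of the E2F transcription factors, which are released when cyclin E and CDK2 act on RB. Human pluripotent stem cells have a short G1 phase and spend a large share of their cycle in S phase. In bulk RNA a lower level can mean fewer cells in S phase or less transcript in each cell, and these cannot be told apart.

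The promoters of the genes were examined for the E2F and CCAAT sequences that textbooks describe there. RefSeq gives a promoter window, from 250 bases before to 50 bases after the start, for 34 of the 40. The words TTTCCCGC, TTTCGCGC, TTTGCCGC and TTTGGCGC, all fits to the E2F consensus, were searched on both strands, with overlapping matches each counted. At least 1 was found in 16 of the 34 windows (47.1%), against 908 of 27303 windows of that length in the whole RefSeq table (3.33%). CCAAT, on either strand, was found in 19 of the 34 (55.9%), against 35.7% of all windows, and both kinds of match in 9 (26.5%), against 1.29%. Such a match is a run of letters and not a measured binding site.

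Printed here are the windows of 3 genes that lead the results below, all on the minus strand of RefSeq's GRCh38.p14 and all read in the direction of transcription. That of the helicase subunit gene MCM6 is chr2:135876394-135876693, that of the clamp gene PCNA is chr20:5126573-5126872, and that of the primase gene PRIM1 is chr12:56752274-56752573. Capitals mark the E2F words and CCAAT on either strand.
MCM6: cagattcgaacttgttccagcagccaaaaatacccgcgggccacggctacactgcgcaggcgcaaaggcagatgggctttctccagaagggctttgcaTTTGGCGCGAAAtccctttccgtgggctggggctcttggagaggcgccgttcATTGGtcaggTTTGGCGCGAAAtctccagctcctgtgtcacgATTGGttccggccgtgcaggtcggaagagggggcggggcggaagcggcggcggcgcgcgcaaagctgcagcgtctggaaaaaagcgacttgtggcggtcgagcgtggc
PCNA: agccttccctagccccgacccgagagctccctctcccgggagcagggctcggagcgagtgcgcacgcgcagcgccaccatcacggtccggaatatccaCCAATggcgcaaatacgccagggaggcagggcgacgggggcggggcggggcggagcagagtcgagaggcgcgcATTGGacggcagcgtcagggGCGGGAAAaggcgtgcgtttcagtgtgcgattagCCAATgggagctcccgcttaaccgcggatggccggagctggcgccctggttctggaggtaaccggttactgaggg
PRIM1: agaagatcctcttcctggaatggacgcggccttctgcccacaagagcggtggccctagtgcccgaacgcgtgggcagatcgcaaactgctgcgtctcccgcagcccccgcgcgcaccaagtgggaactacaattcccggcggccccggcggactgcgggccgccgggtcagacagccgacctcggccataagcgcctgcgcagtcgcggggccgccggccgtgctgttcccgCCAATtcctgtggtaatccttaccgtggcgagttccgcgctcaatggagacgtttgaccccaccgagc
The MCM6 window holds 4 E2F words as 2 overlapping pairs, beginning 152, 148, 90 and 86 bases before the start, and a CCAAT match lies 100 and another 58 bases before it. The PCNA window holds 1 E2F word, 59 bases before the start, with 3 CCAAT matches. The PRIM1 window holds 1 CCAAT match, 18 bases before the start, and none of the 4 E2F words.

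Total counts per library ran from 6756704 to 20773963, and the lowest count of any of the 40 genes in a library was 9, for CCNE2. CARHSP1 mRNA was at 20.8, 18.2 and 18.5 CPM (read counts scaled to a common library size) in its knockdown libraries, against 152, 148 and 148 CPM in primed controls (log2 change −2.97 ± 0.07; edgeR adjusted p = 8.36e-29). ZIC2 was at 267, 264 and 272 CPM in its knockdown, against 620, 550 and 497 CPM in ectoderm controls (log2 change −1.06 ± 0.07; edgeR adjusted p = 1.18e-10). ZNF8 was at 15.5, 15.7 and 17.8 CPM in the libraries labelled ZNF8 knockdown, against 23.5, 18.8 and 17.8 CPM in naive controls, and this change missed the threshold (log2 −0.32 ± 0.13; edgeR adjusted p = 0.0664), so ZNF8 knockdown names these libraries by their label only. The summed level of 11 naive markers was 967 to 1000 CPM in naive H1 controls, against 78.8 to 91.8 CPM in primed H1 controls, where KLF17 had no counts. It was 386 to 397 CPM in naive H9 cells, against 49.4 to 58.2 CPM in primed H9 cells. KLF17 was at 0.068 CPM in naive H9 cells, against 10.8 CPM in naive H1 controls, while DPPA5 was at 28.8 CPM, against 7.66 CPM. The sum of 10 primed markers was 1760 to 1870 CPM in naive H9 cells, against 4550 to 4610 CPM in primed H9 cells. It was 901 to 937 CPM in naive H1 controls, against 3580 to 3680 CPM in primed H1 controls. The naive groups of H1 and H9 were thus not alike in these markers. The sum of 8 neural ectoderm markers was 965 to 1130 CPM in ectoderm controls, against 34.5 to 42.6 CPM in primed controls, although HES5 and RAX had no counts in the ectoderm controls. Most of the ectoderm sum was OTX2, ZIC1 and SIX3, at 561, 291 and 192 CPM. SOX1 was at 11.9 CPM there, PAX6 at 2.25 CPM and LHX2 at 0.121 CPM.

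Here and below, CPM values are scaled over all 24 libraries together, and a log2 change, given ± SE, comes from edgeR's quasi-likelihood test of the 2 groups alone, called where the Benjamini-Hochberg adjusted p over all genes tested was under 0.05. Values per kilobase divide CPM by the deposited gene length and are used wherever different genes are set side by side. In primed H1 controls the clamp PCNA stood highest per kilobase, at 167 ± 6.55 CPM per kilobase (SD, n = 3), followed by the helicase subunit MCM3 at 130 ± 0.87 CPM per kilobase (SD, n = 3). At the low end stood CCNE2, a cyclin E, at 0.645 ± 0.193 CPM per kilobase (SD, n = 3) and POLA2, the regulatory subunit of polymerase alpha, at 0.992 ± 0.107 CPM per kilobase (SD, n = 3). The catalytic subunit of the same polymerase, POLA1, stood at 11.7 ± 0.124 CPM per kilobase (SD, n = 3).

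In primed H1 cells, the CARHSP1 knockdown had higher levels of the clamp gene PCNA, of 3 loader genes and of RRM2 and TYMS for nucleotide supply, and a lower level of the licensing factor CDT1. Of the 40 genes 14 rose (35.0%), against 10.3% of all genes tested, and 1 fell (2.50%), against 9.87%, where 20.2% of all genes passed in either direction. The median log2 change of the 40 was 0.13, and that of all genes tested was 0. Among the clamp and its loader 4 of 6 genes rose, with a median log2 change of 0.24. Among the 8 licensing genes 1 rose and 1 fell, with a median of 0.05.

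PCNA, the sliding clamp, had 306, 312 and 270 CPM in CARHSP1 knockdown libraries, against 225, 238 and 242 CPM in controls. All 3 knockdown libraries lay above all 3 controls, by a log2 change of 0.33 ± 0.05 (edgeR adjusted p = 9.78e-06). RFC4, a subunit of the clamp loader, had 87.8, 95.8 and 90.5 CPM in the knockdown, against 71.2, 68.2 and 66.8 CPM in controls (log2 0.41 ± 0.07; edgeR adjusted p = 1.56e-05). RFC2, another loader subunit, had 91.4, 95.2 and 82.4 CPM in the knockdown, against 74.2, 73.2 and 64.6 CPM in controls (log2 0.34 ± 0.07; edgeR adjusted p = 0.000518). For both loader genes the groups did not overlap. RFC1, the large loader subunit, rose by log2 0.14, and RFC3 and RFC5 did not pass, at log2 0.15 and 0.13. EIF4A2, which overlaps RFC4 on the other strand, was at 617 CPM in the knockdown, against 524 CPM in controls, a log2 change of 0.24.

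Nucleotide supply was higher at 2 of its 4 genes. RRM2, the S phase subunit of ribonucleotide reductase, had 232, 238 and 240 CPM in CARHSP1 knockdown libraries, against 180, 200 and 194 CPM in controls (log2 0.31 ± 0.05; edgeR adjusted p = 1.36e-05). TYMS, which makes thymidylate, had 39.7, 36.2 and 38.1 CPM in the knockdown, against 27.0, 26.0 and 25.7 CPM in controls (log2 0.53 ± 0.09; edgeR adjusted p = 5.65e-05). In both the 2 groups were separate, and the TYMS level was 44.8% higher in the knockdown by the fitted fold. ENOSF1, which overlaps TYMS on the other strand, was at 11.1 CPM in the knockdown, against 9.08 CPM in controls, and did not pass (log2 0.30). RRM1, the large reductase subunit, did not pass at log2 0.10, nor did the salvage kinase TK1 at log2 −0.11. UNG, which removes uracil from DNA, had 192, 191 and 188 CPM in the knockdown, against 163, 164 and 160 CPM in controls. These groups were separate as well, and the spread within each was at most 4 CPM, with a log2 change of 0.23 ± 0.05 (edgeR adjusted p = 0.000834).

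The exception was CDT1, which loads the MCM ring and is destroyed once S phase begins. It had 71.7, 48.4 and 55.7 CPM in CARHSP1 knockdown libraries, against 79.3, 77.9 and 83.3 CPM in controls, a log2 change of −0.45 ± 0.09 (edgeR adjusted p = 0.000174). The knockdown libraries lay below the controls but spread widely. CCNE2, a gene of low level, rose, with 5.60, 4.74 and 6.21 CPM in the knockdown, against 2.60, 2.13 and 3.78 CPM in controls (log2 0.95 ± 0.26; edgeR adjusted p = 0.00727). GINS4 of the helicase (log2 0.36), the primase subunit PRIM2 (log2 0.27), MCM4 (log2 0.13), the single-strand binding subunit RPA3 (log2 0.32), the histone mRNA binding gene SLBP (log2 0.23) and CHAF1B of chromatin assembly (log2 0.27) also rose. Of these, the PRIM2, SLBP, RFC1 and RPA3 calls were lost after removal of the GC and length trends, and changes across all genes followed GC content in this pair (Spearman correlation across genes −0.33). Without control replicate 1 or 2 the number that rose was 8 or 9, and the number that fell was 5 without knockdown replicate 1 and 2 without control replicate 3.

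Other genes of the cycle were counted from lists of neighbouring functions. Of 8 origin recognition and geminin genes 3 rose and 1 fell, with GMNN, the inhibitor of CDT1, at log2 0.33. Of 12 firing factors 2 rose and 1 fell, among them the kinase CDC7 (log2 0.34) and TICRR, which brings CDC45 to origins (log2 −0.48). Of 8 subunits of polymerases delta and epsilon POLD3 rose (log2 0.40) and POLD1 fell (log2 −0.28). Of 16 other nucleotide supply genes 5 rose and 1 fell, led by the p53-induced reductase subunit RRM2B (log2 0.53) and the CTP synthase CTPS1 (log2 0.51). Of 12 E2F and RB family genes TFDP1 rose (log2 0.25) and E2F4 fell (log2 −0.21). Of 14 measured G1 cyclins, CDKs and inhibitors 2 rose and 1 fell, with the inhibitor CDKN1A at log2 1.04 and CDK6 at log2 −0.40. Of 17 checkpoint and fork repair genes 4 rose and 1 fell, with the helicase BLM at log2 0.27, and of 19 measured mitosis genes 5 rose, with BUB1 at log2 0.22. Beside these, naive markers summed to 51.3 to 55.5 CPM in the knockdown, against 78.8 to 91.8 CPM in controls, with KLF17 at 0 in both, and 8 fibroblast markers to 593 to 628 CPM, against 688 to 704 CPM. Most of the fibroblast sum was THY1, which is also on the primed list, at 361 CPM in the knockdown, against 410 CPM in controls. LUM was at 0 in both groups, and COL3A1 and DCN at no more than 0.0256 CPM. The part of these marker sums in the result was not tested.

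**Figure D1:**
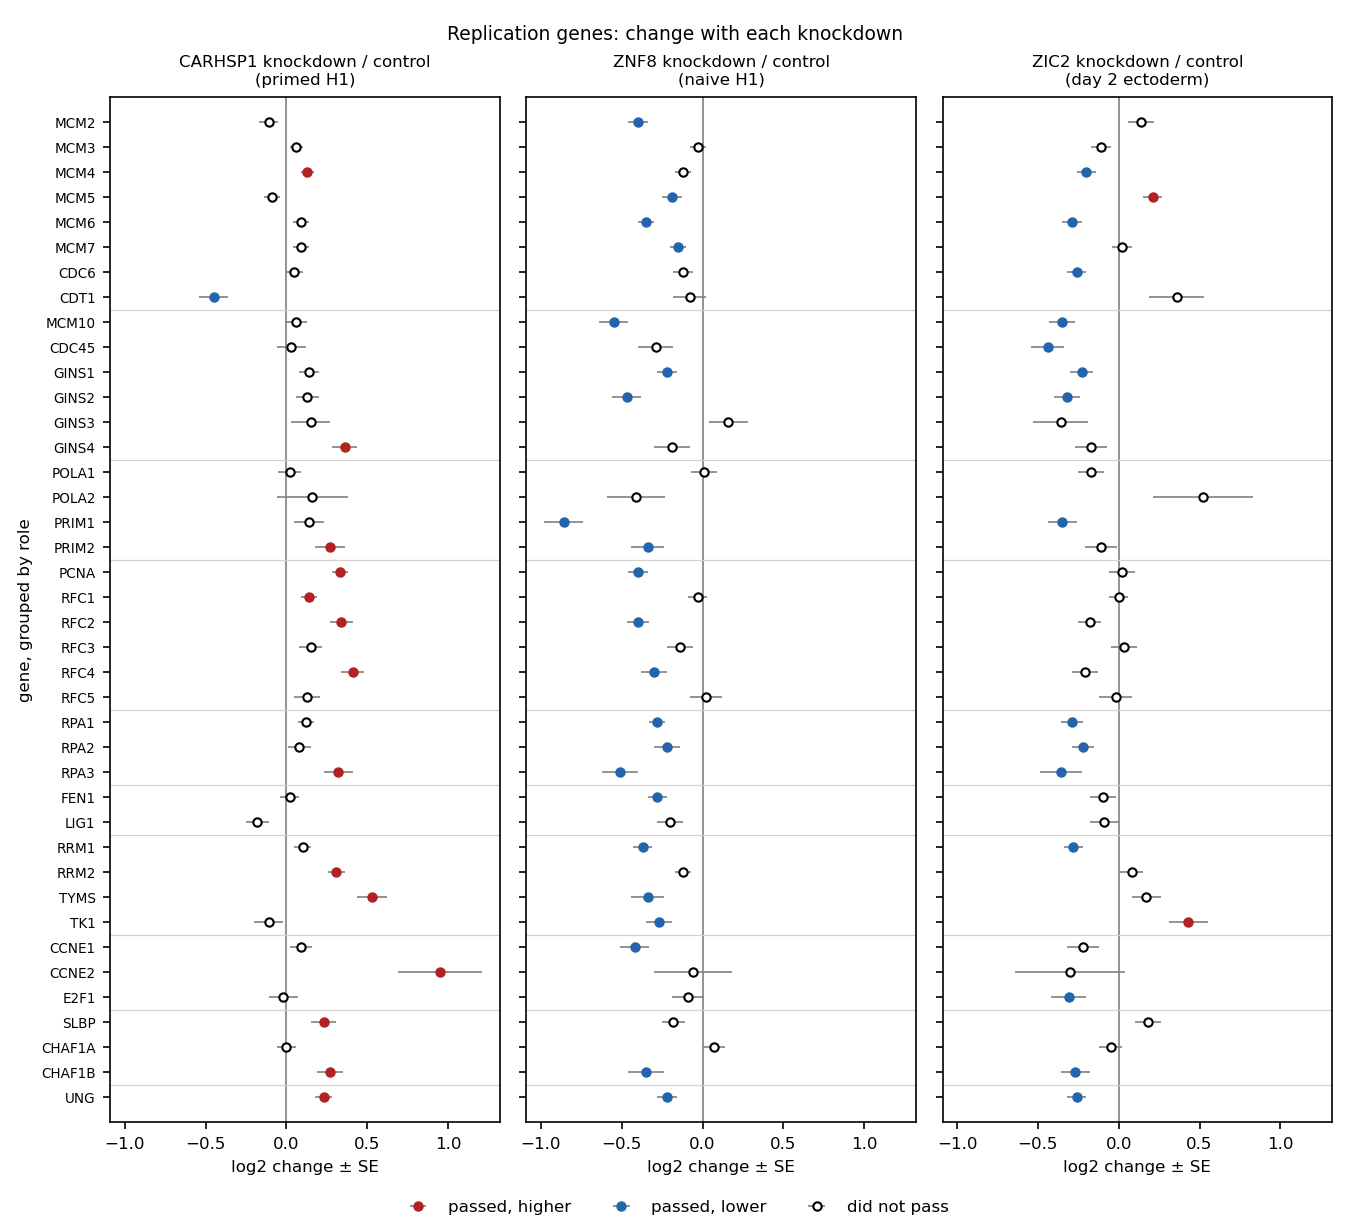
Log2 change ± SE of the 40 replication genes (rows, grouped by role) with CARHSP1 knockdown in primed H1 cells, ZNF8 knockdown in naive H1 cells and ZIC2 knockdown in day 2 ectoderm, each over its nontargeting control with 3 libraries a group. Filled points passed the test: 14 higher and 1 lower with CARHSP1, 22 lower with ZNF8, and 2 higher and 15 lower with ZIC2.

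In naive H1 cells the libraries labelled ZNF8 knockdown had lower levels of genes from every role, led by the primase subunit PRIM1. Of the 40 genes 22 fell (55.0%), against 12.3% of all genes tested and 24.2% in either direction. The number that rose was 0, against 11.9%, by edgeR's adjusted p, and it was also 0 at an unadjusted p under 0.05 and with DESeq2. The median log2 change of the 40 was −0.22, against −0.01 for all genes tested. In 26 of the 40 every knockdown library lay below every control, as did 17.7% of all genes tested. The summed level of the 40 was 3620 to 3650 CPM in the knockdown libraries, against 4140 to 4180 CPM in controls.

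PRIM1, the catalytic subunit of primase, had 17.4, 17.2 and 19.5 CPM in ZNF8 knockdown libraries, against 34.4, 27.1 and 35.3 CPM in controls. Each knockdown library lay below every control, with a log2 change of −0.86 ± 0.12 (edgeR adjusted p = 3.16e-07), or 44.7% lower by the fitted fold. In the gene annotation PRIM1 overlaps NACA on its own strand, and NACA was at 460 CPM in the knockdown, against 527 CPM in controls (log2 −0.21). HSD17B6, which overlaps it on the other strand, was at 3.07 CPM in the knockdown, against 1.89 CPM in controls. Reads of overlapping genes may have been split between them, since the counting method is unknown here, and the PRIM1 level is uncertain to that extent. Its partner PRIM2 fell by 0.34 on the log2 scale, while POLA1, the polymerase they work with, was at log2 0.01 and did not pass.

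Within the helicase, the change differed from subunit to subunit. MCM6 had 309, 288 and 291 CPM in ZNF8 knockdown libraries, against 377, 362 and 380 CPM in controls (log2 −0.35 ± 0.05; edgeR adjusted p = 6.97e-07). MCM2 had 84.4, 86.8 and 77.7 CPM in the knockdown, against 107, 108 and 111 CPM in controls (log2 −0.40 ± 0.06; edgeR adjusted p = 8.15e-06). In both all knockdown libraries were below all controls, and MCM5 and MCM7 fell by 0.19 and 0.15 on the log2 scale. MCM3, by contrast, had 257, 267 and 269 CPM in the knockdown, against 261, 263 and 280 CPM in controls, and these overlapped (log2 −0.03 ± 0.05; edgeR adjusted p = 0.701). MCM10, which helps to turn the loaded ring into a helicase, had 43.8, 43.7 and 41.1 CPM in the knockdown, against 58.7, 72.1 and 55.0 CPM in controls (log2 −0.55 ± 0.09; edgeR adjusted p = 6.77e-06). GINS1 and GINS2 fell by 0.22 and 0.47 on the log2 scale, while the other two GINS genes and CDC45 did not pass.

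PCNA had 146, 147 and 161 CPM in ZNF8 knockdown libraries, against 203, 188 and 200 CPM in controls (log2 −0.40 ± 0.06; edgeR adjusted p = 9.28e-07). RRM1, the large reductase subunit, had 99.9, 92.4 and 98.9 CPM in the knockdown, against 124, 125 and 124 CPM in controls (log2 −0.37 ± 0.06; edgeR adjusted p = 1.31e-05). Neither pair of groups overlapped, and the RRM1 controls were nearly equal. RPA1, RPA2 and RPA3, the 3 subunits that coat single-stranded DNA, fell by 0.28, 0.22 and 0.51 on the log2 scale. So did the loader genes RFC2 and RFC4 (log2 −0.40 and −0.30), the flap nuclease FEN1 (log2 −0.28), TYMS (log2 −0.34), TK1 (log2 −0.27), the cyclin E gene CCNE1 (log2 −0.42), CHAF1B (log2 −0.35) and UNG (log2 −0.22). FADS2 overlaps FEN1 on the same strand and was at 436 CPM in the knockdown, against 345 CPM in controls.

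Among neighbouring lists, checkpoint and fork repair genes had 8 of 17 lower, with the mismatch repair gene MSH6 at log2 −0.32 and the helicase BLM at log2 −0.53. Firing factors had 5 of 12 lower, with WDHD1 at log2 −0.20 and TIPIN at log2 −0.46. Mitosis genes had 5 of 19 measured lower, with TOP2A at log2 −0.38 and KIF11 at log2 −0.39. The E2F and RB family had 3 of 12 lower, with E2F2 at log2 −0.98 and E2F7 at log2 −0.37. Polymerase delta and epsilon subunits had 1 of 8 higher, POLE at log2 0.41, and 2 lower, with POLE3 at log2 −0.26. Other nucleotide supply genes had 1 of 16 higher and 4 lower, with IMPDH2 at log2 −0.31 and SAMHD1 at log2 −0.29. The G1 list had 3 of 15 measured higher and 4 lower, with CCND2 at log2 0.58 and CCND1 at log2 −0.41. Of the 8 origin recognition and geminin genes 0 passed by edgeR and 0 by DESeq2, and 2 were lower at an unadjusted p under 0.05. In the same libraries naive markers summed to 674 to 697 CPM in the knockdown, against 967 to 1000 CPM in controls, and 8 trophoblast and amnion markers to 29.6 to 33.7 CPM, against 77.1 to 85.9 CPM, with CGA at 0 in the knockdown. The 8 fibroblast markers summed to 392 to 428 CPM in the knockdown, against 305 to 316 CPM in controls, with COL3A1, LUM and DCN at 0 in the knockdown. Nearly all of that sum was COL1A2, at 398 CPM in the knockdown, against 300 CPM in controls, while PDGFRB was at 0.18 CPM, against 0.77 CPM. The part of any of these marker sums in the result was not tested.

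In day 2 ectoderm, ZIC2 knockdown had lower levels of MCM4, MCM6, 4 of the 6 helicase activation genes and the RPA genes, and higher levels of MCM5 and TK1. Of the 40 genes 15 fell (37.5%), against 12.8% of all genes tested, and 2 rose (5.00%), against 15.3%, with 28.1% of all genes called in either direction. The median log2 change was −0.18, against −0.01 over all genes tested. MCM2, MCM3 and MCM7 did not pass, nor did GINS3 and GINS4, and the clamp and its loader had 0 of 6 called by edgeR or DESeq2, with 2 lower at an unadjusted p under 0.05. PCNA itself had 267, 251 and 261 CPM in the knockdown, against 223, 245 and 296 CPM in controls, which overlapped (log2 0.02 ± 0.08; edgeR adjusted p = 0.876).

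MCM6 had 213, 224 and 218 CPM in ZIC2 knockdown libraries, against 250, 280 and 268 CPM in controls (log2 −0.29 ± 0.06; edgeR adjusted p = 0.00119). CDC6, the ATPase that helps to load the ring, had 248, 259 and 239 CPM in the knockdown, against 291, 293 and 305 CPM in controls (log2 −0.26 ± 0.06; edgeR adjusted p = 0.00236). Both were lower in all 3 knockdown libraries than in any control. MCM10 had 81.0, 83.6 and 89.6 CPM in the knockdown, against 99.9, 115 and 107 CPM in controls (log2 −0.35 ± 0.08; edgeR adjusted p = 0.00155). CDC45, which joins the ring to form the active helicase, had 34.7, 37.2 and 37.1 CPM in the knockdown, against 45.4, 50.3 and 51.9 CPM in controls (log2 −0.44 ± 0.10; edgeR adjusted p = 0.00176). The CDC45 difference was 26.5% by the fitted fold, and again no libraries overlapped.

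RPA1, the large subunit of the single-strand binding complex, had 212, 232 and 244 CPM in ZIC2 knockdown libraries, against 261, 291 and 288 CPM in controls (log2 −0.29 ± 0.07; edgeR adjusted p = 0.00205). RRM1 had 204, 215 and 221 CPM in the knockdown, against 259, 252 and 264 CPM in controls (log2 −0.28 ± 0.06; edgeR adjusted p = 0.0014). Knockdown libraries lay below controls in both. MCM4 (log2 −0.20), GINS1 (log2 −0.23), GINS2 (log2 −0.32), PRIM1 (log2 −0.35), RPA2 (log2 −0.22), RPA3 (log2 −0.36), the transcription factor E2F1 (log2 −0.31), CHAF1B (log2 −0.27) and UNG (log2 −0.26) also fell. MCM5 had 236, 220 and 214 CPM in the knockdown, against 197, 186 and 194 CPM in controls (log2 0.21 ± 0.06; edgeR adjusted p = 0.0156). TK1 had 56.4, 38.6 and 44.7 CPM in the knockdown, against 32.6, 35.1 and 35.1 CPM in controls (log2 0.43 ± 0.12; edgeR adjusted p = 0.0106). Knockdown replicate 1 was the highest library of both, and of CDT1, which had 73.3, 40.2 and 39.5 CPM in the knockdown, against 39.5, 34.7 and 44.3 CPM in controls (log2 0.36; edgeR adjusted p = 0.118).

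Without knockdown replicate 1 the number that rose was 0 and without control replicate 2 it was 1, and without knockdown replicate 2 the number that fell was 9. Changes across all genes followed GC content in this pair (Spearman correlation across genes 0.33), and with GC and length trends removed the MCM5, TK1, GINS1, PRIM1, RPA2 and RPA3 calls were lost. In neighbouring lists, mitosis genes had 1 of 19 measured higher and 7 lower, with TOP2A at log2 −0.45 and CENPF at log2 −0.41. Checkpoint and fork repair genes had 6 of 17 lower, among them the kinases ATR (log2 −0.34) and CHEK1 (log2 −0.21). The G1 list had 3 of 14 measured higher and 2 lower, with CDKN1A at log2 2.71 and CCND2 at log2 0.59. Other nucleotide supply genes had 4 of 16 higher and 5 lower, with RRM2B at log2 0.76 and the dUTPase DUT at log2 −0.64. Origin recognition genes had 2 of 8 lower, ORC1 (log2 −0.26) and ORC4 (log2 −0.25), and firing factors 1 of 12 higher and 2 lower, with RECQL4 at log2 0.58 and CDC7 at log2 −0.34. The E2F and RB family had 2 of 12 higher and 2 lower, with E2F4 at log2 0.38 and TFDP2 at log2 −0.36. Polymerase delta and epsilon subunits had 2 of 8 higher and 2 lower, with POLD1 at log2 0.54 and POLD3 at log2 −0.33. Beside these changes, neural ectoderm markers summed to 701 to 778 CPM in the knockdown, against 965 to 1130 CPM in controls, with 2 of 5 measured lower. OTX2 was at 349 CPM, against 561 CPM, SIX3 at 184 CPM, against 192 CPM, and SOX1 at 15.7 CPM, against 11.9 CPM. The 7 core pluripotency markers summed to 4390 to 4600 CPM, against 5430 to 5880 CPM, with 1 of 6 measured higher and 3 lower. LIN28A was at 3220 CPM, against 4100 CPM, POU5F1 at 414 CPM, against 444 CPM, and NANOG at 7.99 CPM, against 3.91 CPM. The fibroblast markers summed to 297 to 320 CPM in the knockdown, against 193 to 204 CPM in controls, with COL3A1, LUM, DCN and POSTN at 0 in both. Trophoblast and amnion markers summed to 14.3 to 21.2 CPM in the knockdown, against 8.97 to 13.4 CPM in controls, with 2 of 3 measured higher, and GATA3 was at 2.17 CPM in the knockdown and at 0 in controls, with CGA and HAND1 at 0 in both. Naive markers summed to 72.4 to 75.2 CPM in the knockdown, against 47.0 to 61.1 CPM in controls, with 3 of 5 measured higher and KLF17 and KHDC3L at 0 in both. Primed markers summed to 3380 to 3440 CPM in the knockdown, against 3890 to 4070 CPM in controls, with 6 of 9 measured higher and 3 lower. ZIC2, the knockdown target, is itself on the primed list, at 267 CPM in the knockdown, against 556 CPM in controls. Part of the fall in that sum is thus the knockdown itself. The part of these marker sums in the result was not tested.

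**Figure D2:**
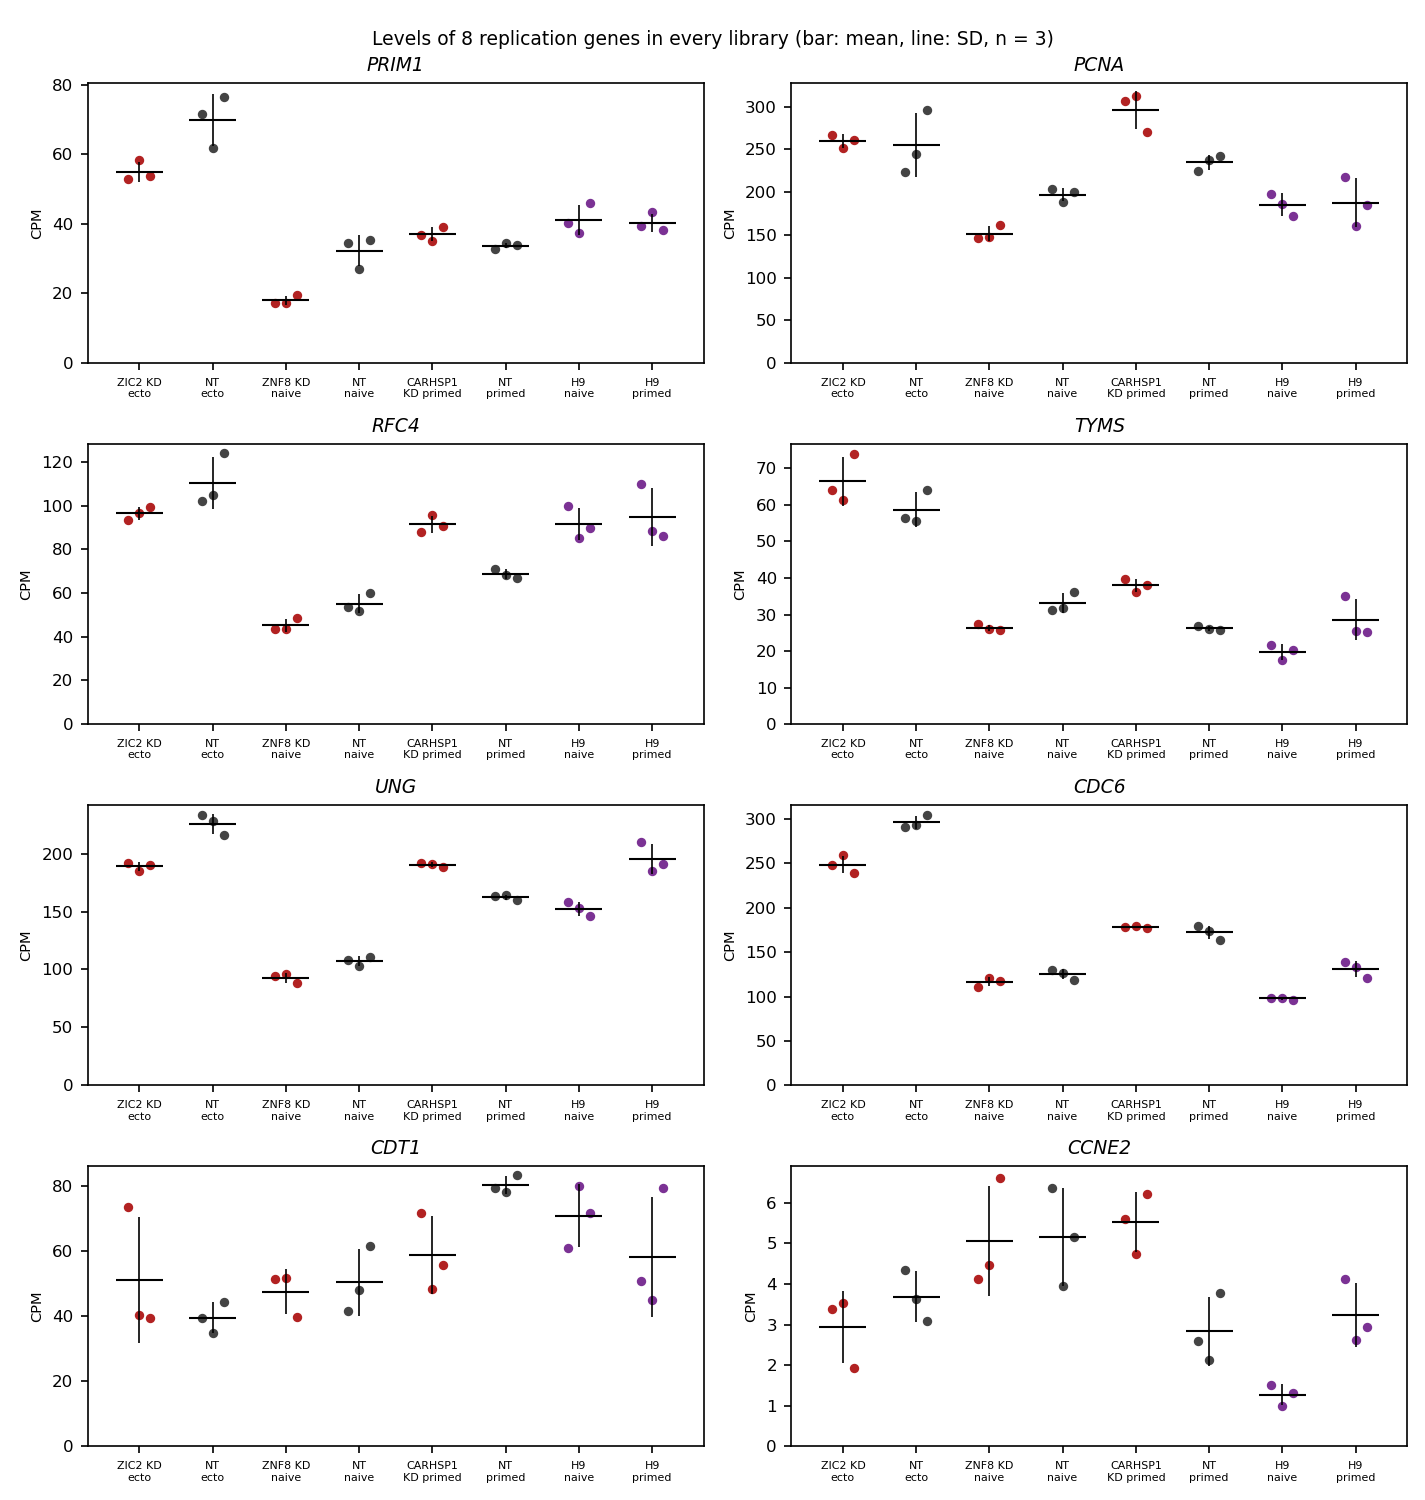
Level in CPM of 8 replication genes in every library of the 8 groups, with the mean (horizontal bar) and SD (vertical line) of 3 libraries and each H1 knockdown left of its nontargeting control (NT). PRIM1 lies lowest in the ZNF8 knockdown at 17.2 to 19.5 CPM, and in the ZIC2 knockdown CDT1 is at 73.3 CPM in replicate 1, against 40.2 and 39.5 CPM in the other 2.

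The 3 knockdown comparisons share no control library, so their calls can be set side by side, although the cells, targets and states all differ between them. RPA3, CHAF1B and UNG passed in all 3, higher with CARHSP1 knockdown and lower with ZNF8 and with ZIC2 knockdown. The share of all genes with such calls in all 3 was not counted, so nothing is read from their number. The RPA3 call was lost with CARHSP1 and with ZIC2 knockdown once GC and length trends were removed, and the CHAF1B call was lost in each of the 3 with at least 1 library left out. The UNG call was lost with ZNF8 knockdown without control replicate 3 (edgeR adjusted p = 0.056). Lower with both ZNF8 and ZIC2 knockdown were 11 genes, 50.0% of those that fell with ZNF8 and 73.3% of those that fell with ZIC2. Of all 40, 37.5% fell with ZIC2 and 55.0% with ZNF8. Over the 13886 genes tested in both comparisons, 29.3% of those that fell with ZNF8 also fell with ZIC2, where 12.9% of genes did so, and 27.9% of those that fell with ZIC2 also fell with ZNF8, where 12.3% did. The 11 were MCM6, MCM10, GINS1, GINS2, PRIM1, RPA1, RPA2, RPA3, RRM1, CHAF1B and UNG. Higher with CARHSP1 knockdown and lower with ZNF8 knockdown were PRIM2, PCNA, RFC2, RFC4, RPA3, TYMS, CHAF1B and UNG, which is 57.1% of the genes that rose with CARHSP1 and 36.4% of those that fell with ZNF8. These shares are near those of all 40, of which 55.0% fell with ZNF8 and 35.0% rose with CARHSP1, so nothing is read from them. Over the 14241 genes tested in both, 16.6% of those that rose with CARHSP1 fell with ZNF8, where 12.2% of genes did. Of those that fell with ZNF8, 15.1% rose with CARHSP1, where 11.0% of genes did. MCM3, GINS3, POLA1, POLA2, RFC3, RFC5, LIG1 and CHAF1A passed in none of the 3. Whether the knockdowns differed from one another in their effect was not tested.

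The knockdown changes were also counted by the presence of an E2F word in the promoter window. With ZNF8 knockdown 7 of the 16 genes with such a word fell, with a median log2 change of −0.17, and 12 of the 18 without one, with a median of −0.29. With ZIC2 knockdown 5 of the 16 fell, with a median of −0.10, and 7 of the 18, with a median of −0.20. With CARHSP1 knockdown 2 of the 16 rose, with a median of 0.09, and 8 of the 18, with a median of 0.14. These counts are descriptions, and no difference between them was tested.

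Between cell states, the controls of H1 were compared first for ectoderm. Day 2 ectoderm controls were set against the same primed control libraries as the CARHSP1 knockdown and naive H1 controls were, and they are also the control of the ZIC2 knockdown, while naive H1 controls serve the ZNF8 knockdown, so values are given for each and no overlap is counted. Of the 40 genes 25 rose in ectoderm (62.5%), against 30.7% of all genes tested, and 7 fell (17.5%), against 32.1%, with 62.8% of all genes called in either direction. The median log2 change was 0.32, against 0 over all genes tested, which moved to −0.11 when no low-count filter was used. All 6 helicase activation genes and 5 of the 6 clamp and loader genes rose.

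TYMS had 56.4, 55.5 and 64.2 CPM in ectoderm controls, against 27.0, 26.0 and 25.7 CPM in primed controls (log2 1.15 ± 0.10; edgeR adjusted p = 2.49e-11). PRIM1 had 71.5, 61.7 and 76.5 CPM in ectoderm, against 32.9, 34.5 and 33.9 CPM in primed controls (log2 1.04 ± 0.09; edgeR adjusted p = 7.39e-11). Both were over 2-fold higher by the fitted fold, at 2.22 and 2.06, with no overlap. ENOSF1, which overlaps TYMS on the other strand, was at 16.0 CPM in ectoderm, against 9.08 CPM in primed controls (log2 0.83), so the TYMS level is uncertain if reads were counted without strand. CDC6 had 291, 293 and 305 CPM in ectoderm, against 179, 174 and 164 CPM in primed controls (log2 0.77 ± 0.06; edgeR adjusted p = 1.18e-12). RPA1 had 261, 291 and 288 CPM in ectoderm, against 175, 181 and 170 CPM in primed controls (log2 0.67 ± 0.06; edgeR adjusted p = 5.75e-11). RRM1 had 259, 252 and 264 CPM in ectoderm, against 159, 177 and 162 CPM in primed controls (log2 0.63 ± 0.06; edgeR adjusted p = 2.02e-10). The groups were separate in all 3. CDT1 went the other way, with 39.5, 34.7 and 44.3 CPM in ectoderm, against 79.3, 77.9 and 83.3 CPM in primed controls (log2 −1.03 ± 0.09; edgeR adjusted p = 3.55e-11).

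The other genes that fell in ectoderm were MCM5 (log2 −0.45), POLA2 (log2 −0.83), RRM2 (log2 −0.22), TK1 (log2 −0.54), CCNE1 (log2 −0.54) and CHAF1A (log2 −0.35). The subunits of 1 complex thus moved apart, with MCM3 and MCM4 higher by log2 0.31 and 0.32 and MCM5 lower, RRM1 higher and RRM2 lower, and CHAF1B higher (log2 0.50) and CHAF1A lower. Changes followed GC content across all genes (Spearman correlation across genes −0.35), and with GC and length trends removed 25 of the 32 calls were kept. GINS1, GINS3, RFC1, RFC3, RFC5 and CHAF1A were lost, which leaves 4 of the 6 helicase activation and 2 of the 5 clamp and loader calls, and TK1 turned to log2 0.14 (edgeR adjusted p = 0.224). Mitosis genes had 13 of 19 measured higher and 2 lower, led by BUB1 at log2 1.80 and TOP2A at log2 0.86, and checkpoint and fork repair genes 10 of 17 higher and 2 lower, led by MSH6 at log2 0.56 and RAD17 at log2 0.79. Origin recognition and geminin genes had 6 of 8 higher, with ORC3 at log2 0.54, firing factors 7 of 12 higher and 2 lower, with CDC7 at log2 0.99, and polymerase delta and epsilon subunits 3 of 8 higher and 3 lower, with POLD3 at log2 1.12 and POLD1 at log2 −0.87. Other nucleotide supply genes had 7 of 16 higher and 8 lower, with DUT at log2 0.95 and MTHFD1 at log2 −0.74, the E2F and RB family 4 of 12 higher and 3 lower, with E2F4 at log2 −0.77, and the G1 list 7 of 14 measured higher and 5 lower, with CDK6 at log2 −0.68.

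Naive H1 controls, compared with primed H1 controls, had lower levels of both chromatin assembly genes and of 6 of the 8 licensing genes and higher levels of MCM6 and SLBP. Of the 40 genes 23 fell (57.5%), against 36.1% of all genes tested, and 8 rose, against 35.0%, with 71.1% of all genes called in either direction. The median log2 change was −0.23, against 0 over all genes tested. MCM3 had 261, 263 and 280 CPM in naive controls, against 473, 476 and 469 CPM in primed controls (log2 −0.84 ± 0.04; edgeR adjusted p = 2.06e-26). MCM6 had 377, 362 and 380 CPM in naive controls, against 256, 264 and 250 CPM in primed controls (log2 0.52 ± 0.04; edgeR adjusted p = 1.67e-16). These subunits of the same ring thus lay on opposite sides, each with no overlap between groups.

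CHAF1A, the large subunit of the chromatin assembly factor CAF-1, had 92.4, 91.9 and 102 CPM in naive H1 controls, against 181, 189 and 174 CPM in primed controls (log2 −0.94 ± 0.06; edgeR adjusted p = 3.78e-23). CHAF1B, its partner, had 27.0, 24.5 and 24.6 CPM in naive controls, against 46.8, 45.5 and 49.9 CPM in primed controls (log2 −0.92 ± 0.10; edgeR adjusted p = 5.23e-13). The 2 subunits changed by nearly the same amount. UNG had 108, 103 and 111 CPM in naive controls, against 163, 164 and 160 CPM in primed controls (log2 −0.61 ± 0.06; edgeR adjusted p = 2.32e-15). SLBP, which binds the stem-loop of histone mRNAs, had 92.8, 80.9 and 79.8 CPM in naive controls, against 54.4, 54.1 and 49.2 CPM in primed controls (log2 0.67 ± 0.08; edgeR adjusted p = 4.15e-12). Both pairs of groups were separate.

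RPA1, RPA2, RFC3, POLA2, TYMS and CCNE2 also rose in naive H1 controls, by log2 0.30 to 0.82. Among those that fell were CDT1 (log2 −0.70), GINS4 (log2 −0.64), CDC6 (log2 −0.47), CCNE1 (log2 −0.46), RFC5 (log2 −0.45), RRM1 (log2 −0.43), LIG1, which seals nicks between Okazaki fragments (log2 −0.43), and POLA1 (log2 −0.40). Mitosis genes had 18 of 19 measured lower, with TOP2A at log2 −1.72 and MKI67 at log2 −1.55. Other nucleotide supply genes had 2 of 16 higher and 11 lower, with the dNTP hydrolase SAMHD1 at log2 1.57 and RRM2B at log2 −0.87, and checkpoint and fork repair genes 4 of 17 higher and 10 lower, with HUS1 at log2 2.10. Firing factors had 5 of 12 higher and 4 lower, with WDHD1 at log2 1.23 and CDC7 at log2 −0.96, and the E2F and RB family 2 of 12 higher and 7 lower, with E2F8 at log2 −1.30. Polymerase delta and epsilon subunits had 6 of 8 lower, with POLD2 at log2 −0.59, origin recognition and geminin genes 1 of 8 higher and 5 lower, with GMNN at log2 −0.49, and the G1 list 4 of 14 measured higher and 5 lower, with CCND2 at log2 −1.39.

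Naive H9 cells, compared with primed H9 cells, had lower levels of MCM6, cyclin E2 and E2F1 and a higher level of RPA2. Of the 40 genes 14 fell (35.0%), against 26.1% of all genes tested, and 3 rose (7.50%), against 25.4%, with 51.5% of all genes called in either direction. The median log2 change was −0.13, against 0 over all genes tested. MCM6 had 213, 217 and 215 CPM in naive H9 cells, against 387, 377 and 356 CPM in primed H9 cells (log2 −0.80 ± 0.08; edgeR adjusted p = 8.05e-08). E2F1 had 32.7, 35.5 and 29.3 CPM in naive H9 cells, against 56.0, 46.2 and 48.5 CPM in primed H9 cells (log2 −0.64 ± 0.11; edgeR adjusted p = 9.73e-05). Naive libraries lay below primed ones in both.

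POLA1 had 85.8, 83.5 and 92.5 CPM in naive H9 cells, against 120, 128 and 125 CPM in primed H9 cells (log2 −0.52 ± 0.09; edgeR adjusted p = 7.04e-05). CHAF1A had 69.1, 75.7 and 60.3 CPM in naive H9 cells, against 103, 92.0 and 105 CPM in primed H9 cells (log2 −0.56 ± 0.10; edgeR adjusted p = 0.00011). CDC6 had 98.9, 98.9 and 95.9 CPM in naive H9 cells, against 139, 133 and 121 CPM in primed H9 cells (log2 −0.43 ± 0.09; edgeR adjusted p = 0.000468). In each the naive libraries were the lower ones without overlap. RPA2, the middle subunit of RPA, had 139, 137 and 124 CPM in naive H9 cells, against 102, 94.1 and 87.0 CPM in primed H9 cells (log2 0.49 ± 0.09; edgeR adjusted p = 0.000197). LIG1 (log2 0.38) and MCM5 (log2 0.22) were the others that rose, and CCNE2 had the largest decrease of the 40, at log2 −1.35.

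In H9 the E2F and RB family had 1 of 12 higher and 9 lower, with TFDP2 at log2 −0.80 and TFDP1, a partner of E2F factors, at log2 −0.58. Checkpoint and fork repair genes had 3 of 17 higher and 9 lower, with the kinase WEE1 at log2 −0.61, and mitosis genes 1 of 19 measured higher and 7 lower, with MKI67 at log2 −1.03. The G1 list had 6 of 14 measured higher and 3 lower, with CDKN1A at log2 1.47 and CCND1 at log2 −1.38, and other nucleotide supply genes 4 of 16 higher and 5 lower, with SAMHD1 at log2 0.95 and RRM2B at log2 −1.45. Firing factors had 1 of 12 higher and 2 lower, with WDHD1 at log2 0.97 and MTBP at log2 −0.52. Origin recognition genes had 1 of 8 higher and 1 lower, ORC1 at log2 0.37 and ORC2 at log2 −0.29, and polymerase delta and epsilon subunits had 1 of 8 higher and 1 lower, POLD2 at log2 0.21 and POLE at log2 −0.36.

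**Figure D3:**
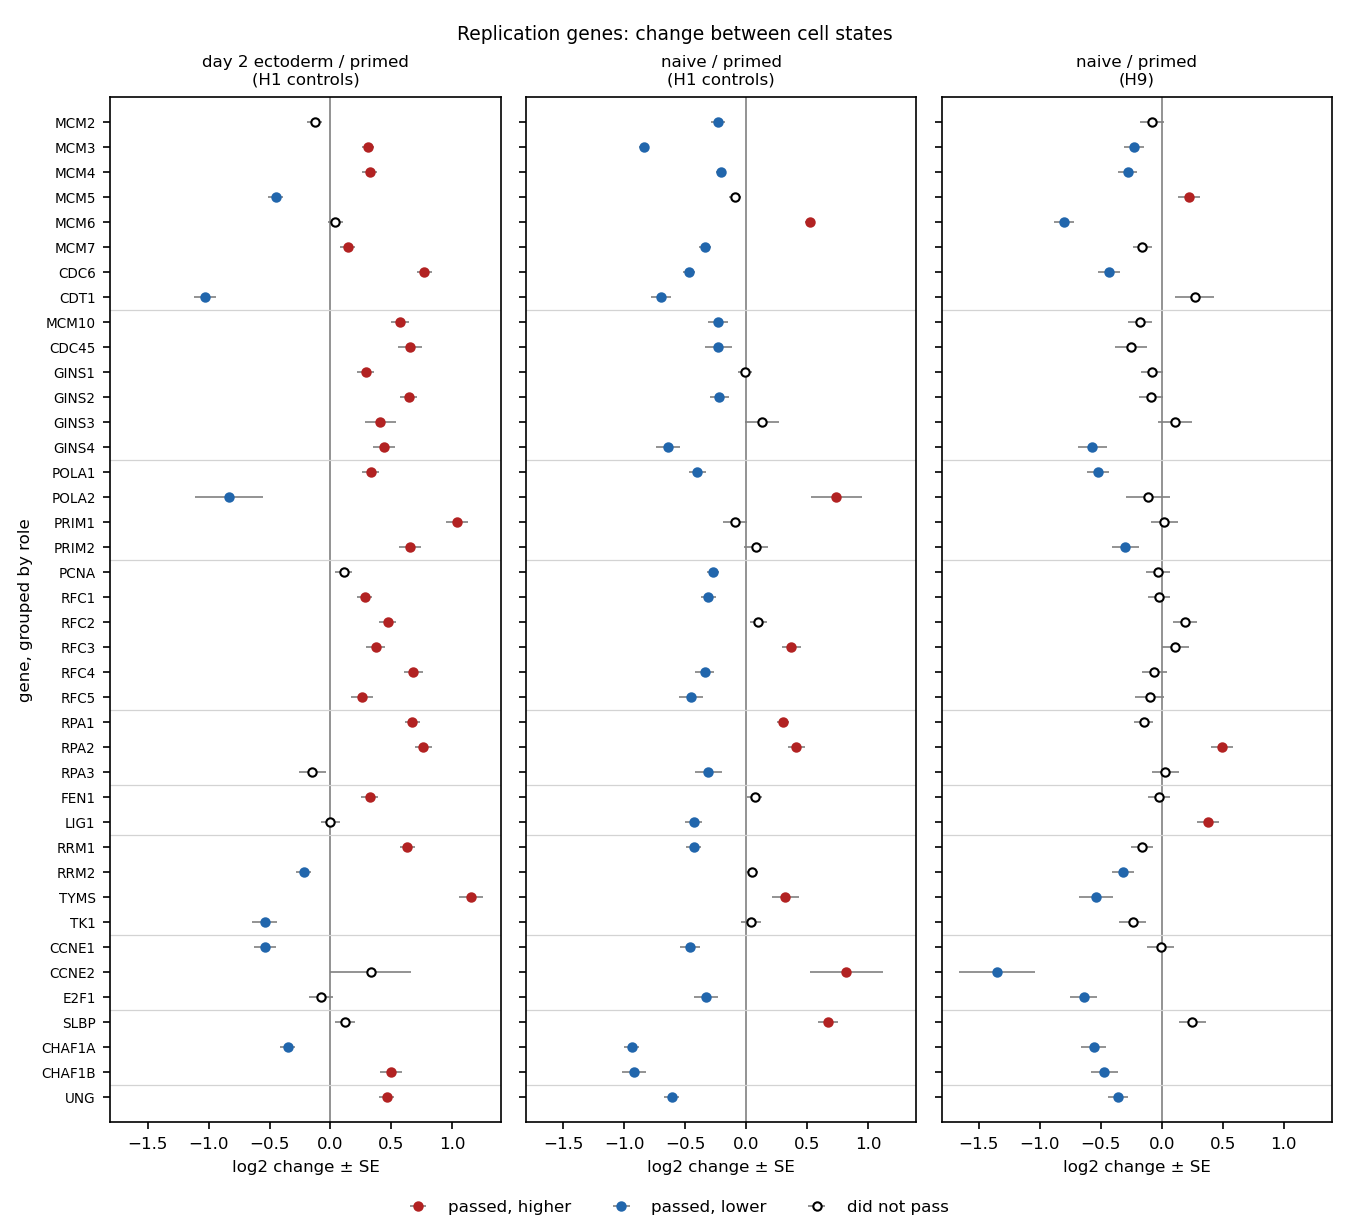
Log2 change ± SE of the 40 replication genes (rows, grouped by role) in day 2 ectoderm and in naive cells over primed cells of the H1 controls, and in naive over primed H9 cells, 3 libraries a group. Filled points passed the test: 25 higher and 7 lower in ectoderm, 8 higher and 23 lower in naive H1, and 3 higher and 14 lower in naive H9.

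Whether the naive to primed change differed between the lines was tested as the H9 change minus the H1 change in a fit of the 4 groups. The difference passed for 18 of the 40 genes, 10 with a higher value in H9 (25.0%), against 26.2% of all genes tested, and 8 with a lower one, against 23.6%. In either direction 49.9% of all genes passed, so the share of the 40 is near that of genes at large. MCM6 had the smallest adjusted p of the 40, with a change of log2 −0.80 in H9 and 0.52 in H1 and a difference of −1.34 ± 0.09 (edgeR adjusted p = 6.54e-14). Its level in naive H9 cells was 52.0 ± 0.566 CPM per kilobase, against 90.2 ± 3.79 in primed H9 cells, and in naive H1 controls 90.2 ± 2.38, against 62.1 ± 1.74 in primed H1 controls (SD, n = 3 each).

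MCM3 fell in both lines, by log2 −0.23 in H9 and −0.84 in H1, with a difference of 0.60 ± 0.09 (edgeR adjusted p = 1.07e-06). LIG1 had opposite signs, at log2 0.38 in H9 and −0.43 in H1 (difference 0.80 ± 0.12; edgeR adjusted p = 9.77e-07). TYMS had log2 −0.54 in H9 and 0.32 in H1 (difference −0.87 ± 0.18; edgeR adjusted p = 0.000152), while ENOSF1, which overlaps it, had log2 0.45 in H9 and 1.38 in H1. All 3 thus had a higher or lower value in 1 line beyond the spread of the libraries. CCNE2, at 1.51, 0.989 and 1.32 CPM in naive H9 cells, against 4.12, 2.62 and 2.95 CPM in primed H9 cells, and at 6.36, 3.95 and 5.16 CPM in naive H1 controls, against 2.60, 2.13 and 3.78 CPM in primed H1 controls, had the largest difference (−2.18 ± 0.44; edgeR adjusted p = 0.000112). Of the 19 measured mitosis genes 15 had a higher value in H9. The H1 controls carried a nontargeting construct and doxycycline and the H9 cells are listed with neither, so line, construct and treatment cannot be told apart. The naive groups also differed in markers of other cell types. In naive H1 controls 6 mesendoderm markers summed to 130 to 152 CPM, against 2.75 to 3.64 CPM in naive H9 cells. Most of that sum was MIXL1, at 129 CPM in naive H1 controls, against 3.06 CPM in naive H9 cells. TBXT was at 8.93 CPM, against 0 CPM, and EOMES, GSC, SOX17 and FOXA2 averaged no more than 0.338 CPM in either group. The trophoblast and amnion markers summed to 77.1 to 85.9 CPM in naive H1 controls, against 6.13 to 10.9 CPM in naive H9 cells. The part of these markers, and of the primed markers given above, in the line difference was not tested.

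**Figure D4:**
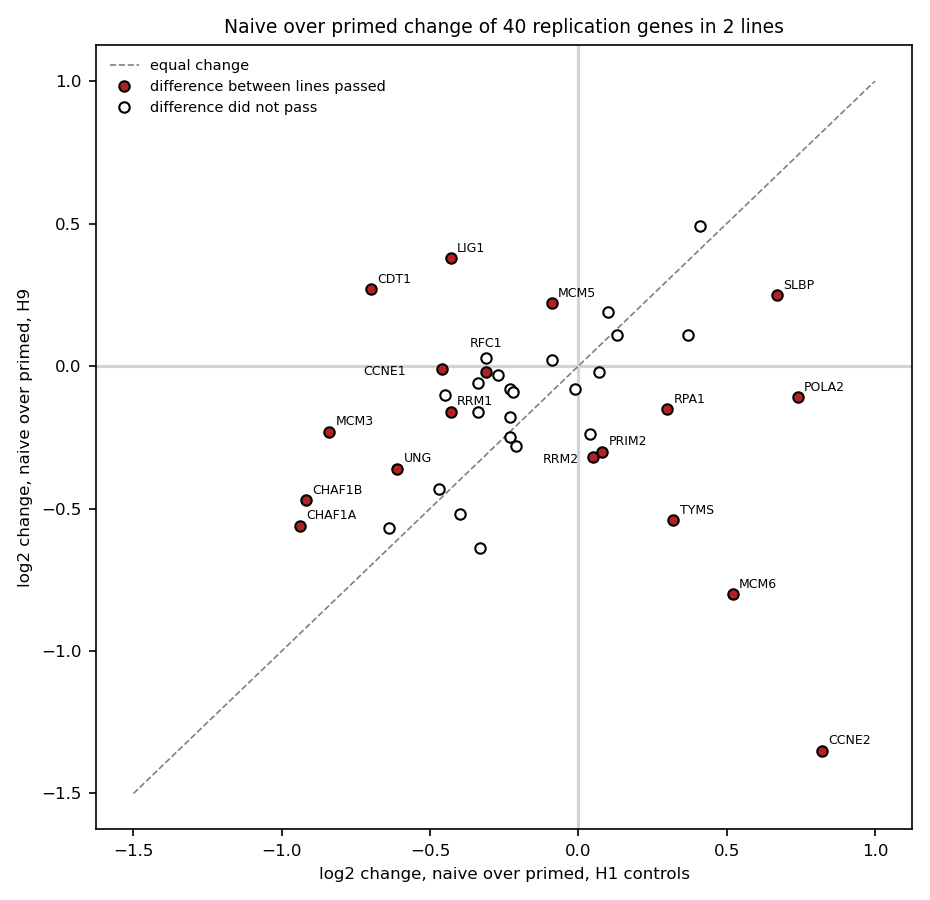
Log2 change of naive over primed cells for the 40 replication genes, in H1 controls (horizontal) and in H9 (vertical), with the dashed line marking equal change. The 18 filled points had a difference between lines that passed, and MCM6 (0.52 in H1, −0.80 in H9) and CCNE2 (0.82 in H1, −1.35 in H9) lie farthest below the line.

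Across the 8 groups the subunits of the MCM ring did not share 1 order. Per kilobase, MCM3 stood at 151 ± 4.70 in ZIC2 knockdown ectoderm, 162 ± 10.4 in its control, 72.6 ± 1.68 in ZNF8 knockdown naive cells, 73.5 ± 2.89 in their control, 135 ± 3.99 in CARHSP1 knockdown primed cells and 130 ± 0.87 in their control (CPM per kilobase, SD, n = 3 each). MCM6 stood at 52.8 ± 1.25 in ZIC2 knockdown ectoderm, 64.3 ± 3.59 in its control, 71.6 ± 2.70 in ZNF8 knockdown naive cells, 90.2 ± 2.38 in their control, 66.1 ± 1.97 in CARHSP1 knockdown primed cells and 62.1 ± 1.74 in their control (CPM per kilobase, SD, n = 3 each). MCM6 thus stood above MCM3 only in the naive H1 control among these 6 groups, and the 2 were within 1 CPM per kilobase of each other in the naive ZNF8 knockdown. In H9, MCM3 stood at 103 ± 3.21 CPM per kilobase in naive cells, against 120 ± 6.17 in primed cells (SD, n = 3 each), above MCM6 in both.

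**Figure D5:**
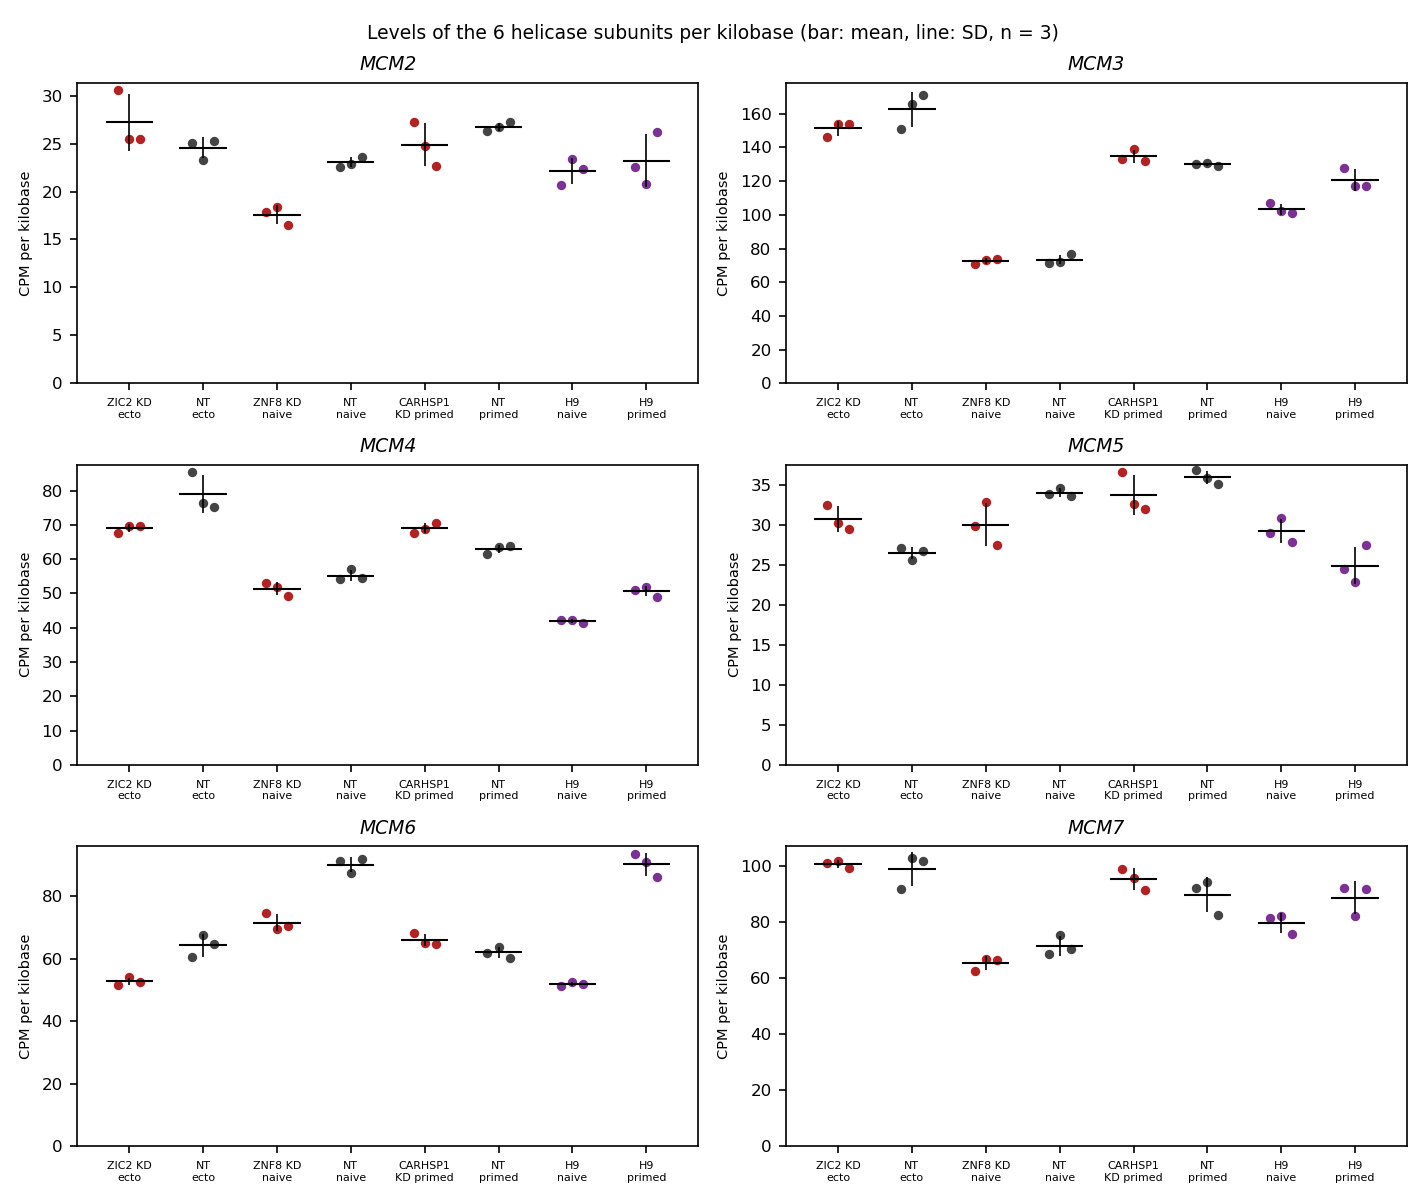
Level in CPM per kilobase of MCM2 to MCM7 in every library of the 8 groups, with the mean (horizontal bar) and SD (vertical line) of 3 libraries. MCM3 lies at 72.6 and 73.5 CPM per kilobase in the naive H1 knockdown and control groups, against 130 in primed controls, while MCM6 lies at 90.2 in naive H1 controls, against 62.1 in primed controls.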

How the data were processed

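Polyadenylated RNA of 24 libraries was sequenced from kits for stranded mRNA, per the labels' protocols. The submitters' processing notes name HISAT2 and GRCh38. They give no version, counting program, annotation or strandedness of counting. The authors deposited unnormalized whole-number counts for 60671 genes in 2 tables, 1 per cell line. The H1 table also holds gene lengths and 27 further columns that match no sample described here and were not used.

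The 40 genes and the lists of neighbouring genes and markers were chosen with earlier results of these data known. Genes given in every library are those with the smallest adjusted p in a comparison, up to 6 in each direction for a knockdown and 6 in all for a state. Up to 2 genes of each list are named by the same order. CCNE2 with CARHSP1, MCM3 with ZNF8, PCNA and CDT1 with ZIC2, the overlapping genes and the genes given by log2 change alone were added after their values were seen.

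From the counts, 6 comparisons and the difference of the naive to primed change between lines were fitted in edgeR 4.0.16 (R 4.3.3) with filterByExpr (count minimum 10), TMM scaling and the quasi-likelihood F test (2-sided), with a threshold of 0.05. Tested on simulated data for the CARHSP1 comparison (15617 genes), the fit called 106 of 116 genes changed by log2 1 and 44 of 84 changed by log2 0.5, with 5 false calls, so changes of the size of most reported here can be missed. Gene positions and GC content come from GENCODE 29 on GRCh38, and promoters from RefSeq. Pairs of replicates differed by a chi-square of 2.44 to 9.16 per degree of freedom, and each library was counted as 1 sample. Such a spread does not show whether replicates came from separate cultures. The precision is set by 3 libraries a group and by depth, 6756704 to 20773963 counts. Samples with the same replicate number were checked for shared deviations and are not treated as pairs, since correlations ran from −0.383 to 0.46. Alternatives were RLE scaling, DESeq2 1.42.0, no low-count filter, all groups in one fit, a replicate block, leaving out each library and, chosen after seeing the data, removal of GC and length trends.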

Additional observations from a re-analysis of the deposited data

Results flagged for a closer look

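The 18 genes whose naive to primed change differed between H9 and H1 by edgeR's interaction test are listed here with the difference, H9 change minus H1 change, on the log2 scale. Higher in H9 were the licensing genes CDT1 (0.95), MCM3 (0.60) and MCM5 (0.31), the ligase LIG1 (0.80), the loader subunit RFC1 (0.29), the reductase subunit RRM1 (0.27), the cyclin CCNE1 (0.44), the chromatin assembly genes CHAF1A (0.37) and CHAF1B (0.44), and UNG (0.24). Lower in H9 were MCM6 (−1.34), POLA2 (−0.86), PRIM2 (−0.38), RPA1 (−0.45), RRM2 (−0.38), TYMS (−0.87), CCNE2 (−2.18) and SLBP (−0.43).

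For UNG, whose adjusted p was 0.0446, the call was lost under 12 of 17 alternatives, for RRM1 under 7 and for PRIM2 under 6. MCM3, MCM6, CDT1, POLA2, RPA1, LIG1, RRM2, TYMS, CCNE1, CCNE2 and SLBP kept the call in all 17. The H1 libraries are controls with a nontargeting construct and doxycycline, and the H9 libraries are listed with neither, which cannot be told apart from the line. The naive groups of the lines also differed in cell type markers, and the part of that was not tested.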

How the results depend on the processing

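The direction of most calls held, and the counts moved with single libraries. With each library left out in turn, genes higher with CARHSP1 knockdown numbered 8 to 13 and lower 1 to 5, genes lower with ZNF8 knockdown 16 to 23, and genes higher with ZIC2 knockdown 0 to 3 and lower 9 to 13. In H9 they numbered 2 to 4 higher and 12 to 15 lower, in naive H1 controls 7 to 8 higher and 20 to 22 lower, in ectoderm 23 to 26 higher and 6 to 7 lower, and for the difference between lines 8 to 14 higher and 7 to 9 lower. Fitting all groups in one fit gave 5 genes higher in naive H9 in place of 3. With GC and length trends removed, 1 gene was higher with ZIC2 knockdown in place of 2. That gene was newly called, since the MCM5 and TK1 calls were both lost. In ectoderm the same removal turned MCM2 to log2 0.16 (edgeR adjusted p = 0.0291), MCM6 to −0.16 (0.0106), TK1 to 0.14 (0.224) and E2F1 to 0.54 (9.1e-05). Of these 4 only TK1 was called before, and the cause was not tested. Scaling by RLE in place of TMM changed the levels by a factor of 0.983 to 1.02.

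Kept in all 12 alternatives, replicates left out included, were 9 of 15 calls with CARHSP1 knockdown, 12 of 22 with ZNF8, 8 of 17 with ZIC2, 14 of 17 in H9, 25 of 31 in naive H1 and 23 of 32 in ectoderm. Under a replicate block, which pairs libraries by number, 2 genes were lower with CARHSP1 knockdown in place of 1, and all 15 of its calls, all 22 with ZNF8 and all 17 with ZIC2 were kept. Every CARHSP1 knockdown library matched its own number best, with correlations of 0.0609 to 0.0953, which is a hint from the data and not from the design. Small changes in CCNE2 and POLA2 are limited by their low counts.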
